A study of Mus musculus with 12 samples.

Results

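Cytochrome P450 enzymes of families 1 to 4 were examined in distal ileal tissue of mice. These are haem proteins of the endoplasmic reticulum that take electrons from the reductase Por and insert an oxygen atom into drugs, dietary compounds, fatty acids and eicosanoids. Families 1 to 3 are best known for the clearance of foreign compounds, and their genes are classical targets of the aryl hydrocarbon receptor (Ahr), the constitutive androstane receptor (Nr1i3) and the pregnane X receptor (Nr1i2). Family 4 mainly hydroxylates fatty acids and leukotrienes, and in the small intestine enterocytes carry most of the tissue's P450. Members were taken by symbol, as every gene written Cyp, a family number from 1 to 4, letters and a final number. The rule used no measured value and found 76 of the 45808 genes in the table, and all 76 were placed on the mouse annotation.

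The tissue came from BALB/c mice, an inbred strain with no engineered allele named, of which 6 libraries were from mice treated with Porphyromonas gingivalis, an oral bacterium linked to periodontitis, and 6 from mice given phosphate-buffered saline (PBS). The comparison asks how ileal transcripts differ after exposure to the bacterium. The sources used here do not give the route, dose and length of treatment or the age of the mice. It is also not stated whether each library came from a separate mouse, so that p-values measure only the spread between these 12 libraries, which may be partly technical.

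Levels are given as normalized counts, that is, reads per gene divided by a size factor for each library, and a level per kilobase is that value divided by the gene's exonic length. Libraries held 6553306 to 10378841 reads. A floor of 3 reads corresponds to 2.14 to 3.78 normalized counts, depending on the library, and covers counting error only. Of the 76 genes, 9 had no reads, 36 had reads but averaged under 10 normalized counts, and 31 averaged at least 10 and were tested.

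Several libraries stood apart along the length of the gut. Fabp6, the ileal bile acid binding protein, was at 2.52 in P. gingivalis replicate 1, 16.0 in P. gingivalis replicate 5 and 4.32 in PBS replicate 6. The other 9 libraries held 11246 to 69383. Fabp1, the fatty acid binding protein of more proximal intestine, was at 26745, 21996 and 16938 in those 3 libraries, against at most 1821 elsewhere. These 3 libraries therefore lacked the defining distal ileal marker that their label calls for. P. gingivalis replicate 6 lay at the other end, with Fabp1 at 18.3, though its Fabp6, at 15621, was within the range of those 9 libraries. It had the lowest summed level of 10 enterocyte markers (74075, against 108266 to 184709 in the other 11 libraries) and the highest smooth muscle sum (27197, against at most 20970 elsewhere). Whether these libraries came from a more proximal or distal stretch of gut was not tested.

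Many P450 genes were set apart in these libraries, which come from both treatment groups. Of the 31 tested genes, 15 (48.4%) were higher in each of the 3 libraries with little Fabp6 than in any of the other 9, a pattern held by 6.46% of all 15025 genes tested. They were Cyp2b10, Cyp2c44, Cyp2c65, Cyp2c66, Cyp2c67, Cyp2c68, Cyp2d22, Cyp2d26, Cyp2j6, Cyp2j9, Cyp3a11, Cyp3a13, Cyp3a25, Cyp4a10 and Cyp4v3. Another 2 (6.45%), Cyp2c55 and Cyp4f40, were lower in all 3 than in any of the other 9, a share near the 4.93% of all genes. P. gingivalis replicate 5 held the highest value for 16 of the 31 genes (51.6%, against 10.2% of all genes), and P. gingivalis replicate 6 held the lowest for 19 (61.3%, against 19.7%). These libraries were singled out after their values were seen, and the counts are given as a description.

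**Figure D1:**
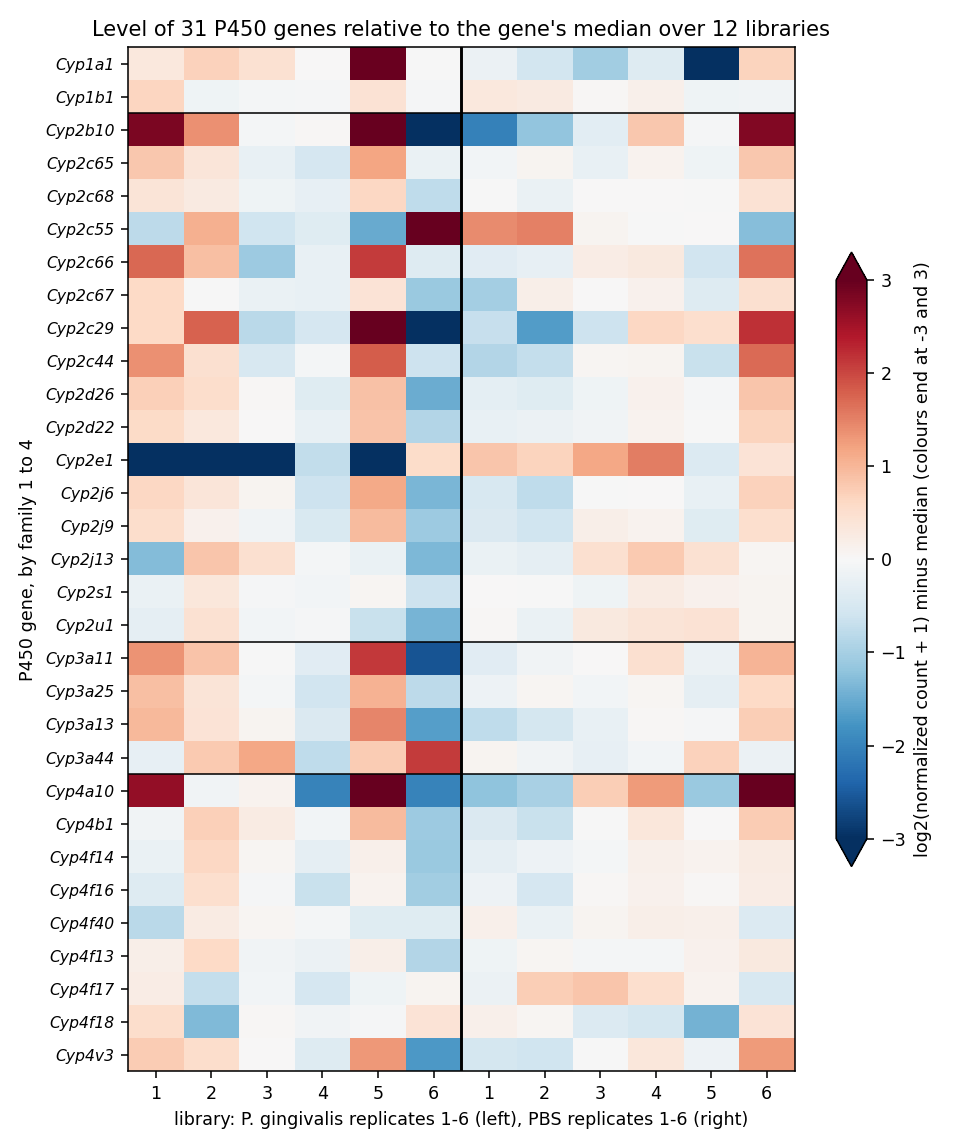
Level of the 31 tested P450 genes (down the page) in the 12 libraries (across, P. gingivalis to the left of PBS), as log2(normalized count + 1) minus the gene's median over the 12 libraries, in colour. P. gingivalis replicates 1 and 5 and PBS replicate 6 share high values for 15 of the genes, while P. gingivalis replicate 6 is lowest for 19.

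None of the 31 genes passed the test between treatment groups. In limma, 0 of 31 had a Benjamini-Hochberg adjusted p under 0.05, as had 0 of all 15025 genes (0.0%). The count tests, with filters of their own, called 0 of 30 P450 genes (edgeR) and 0 of 39 (DESeq2). Over all genes they called 0.0% and 0.178%. DESeq2 gave no p for Cyp1a1. At an unadjusted p under 0.05 there were 2 of the 31, Cyp1a1 higher and Cyp2e1 lower after P. gingivalis, against 560 of all genes (3.73%, of which 1.57% higher and 2.16% lower). In no P450 gene did the 6 P. gingivalis libraries lie wholly above or wholly below the 6 PBS libraries, which happened in 0.0932% and 0.0732% of all genes. Log2 differences are limma's, the mean of log2(normalized count + 1) over P. gingivalis libraries minus that over PBS libraries, and are not the log2 ratio of the printed means. The log2 difference was above 0 in 20 of the 31 and below 0 in 11, with a median of 0.03 against 0.00 over all genes, where 48.9% were above 0.

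The spread between libraries was wide for these genes. The median standard deviation of the log2 level over the 12 libraries was 0.63 for the 31 P450 genes and 0.26 for all genes tested, and the median standard error of the log2 difference was 0.35 against 0.15. The standard deviation was above 1 for 8 of the 31 (25.8%, against 2.27% of all genes), namely Cyp1a1, Cyp2b10, Cyp2c29, Cyp2c55, Cyp2c66, Cyp2e1, Cyp3a11 and Cyp4a10. Apart from Cyp1a1 and Cyp2e1, the log2 differences ran between -0.51 and 0.61, and limma's adjusted p was 0.992 or more for all 29.

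**Figure D2:**
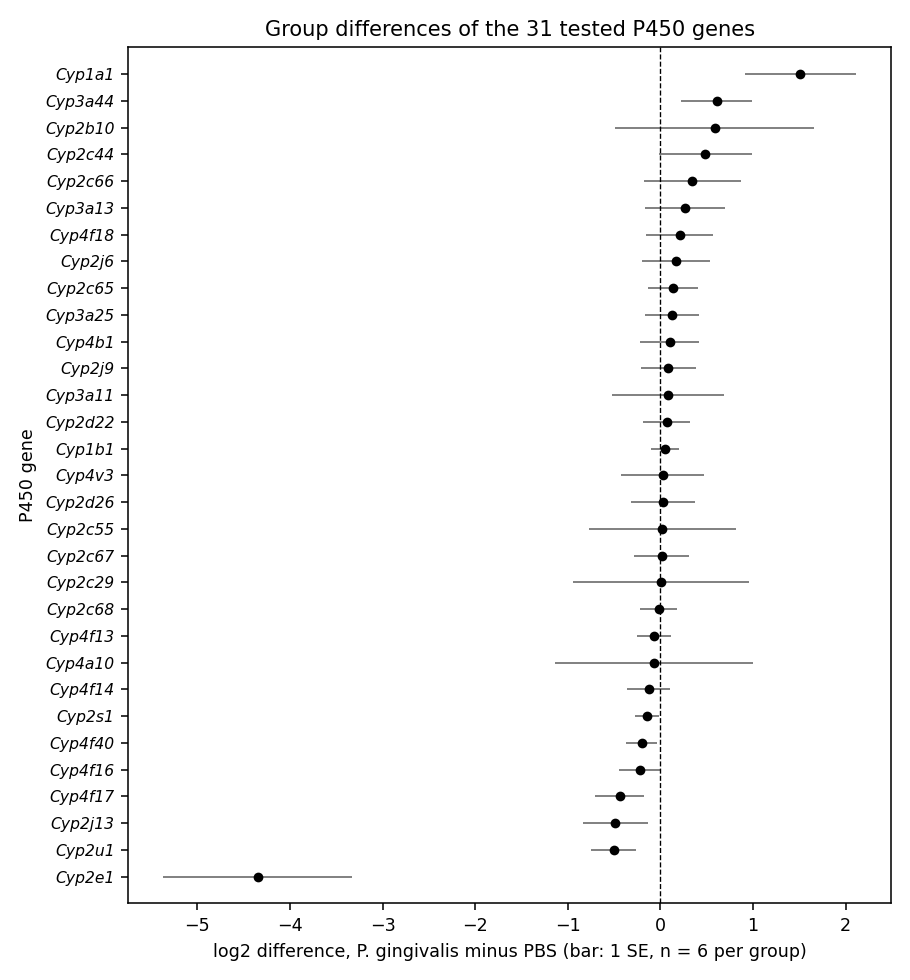
Log2 difference, P. gingivalis minus PBS, with its standard error from limma, for the 31 tested P450 genes. Cyp2e1 at -4.35 and Cyp1a1 at 1.51 stand away from the other 29, which lie between -0.51 and 0.61.

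Weighed per kilobase, family 4 held 46.1% of the summed P450 level, family 2 30.8%, family 3 22.8% and family 1 0.336%. Cyp4f14 led with a mean of 3124 normalized counts per kilobase over the 12 libraries, followed by Cyp3a25 (1255), Cyp4v3 (1245), Cyp2j6 (1237), Cyp2d26 (969), Cyp3a13 (849.8) and Cyp3a11 (692). Cyp3a25, Cyp4v3 and Cyp2j6 differed by less than the spread between their libraries. The exonic length joins every annotated exon of a gene, so the order and the shares depend on that choice. Cyp3a11 was divided by 5093 bases and Cyp3a25 by 2083, although Cyp3a11 had the higher mean count (3523 against 2615). The Cyp4f subfamily made up 32.1% of the sum, Cyp3a 22.8%, Cyp2j 10.5%, Cyp2d 8.33% and Cyp2c 5.88%. This order did not hold in every library. Cyp3a exceeded Cyp4f in P. gingivalis replicates 1 (29.7% against 21.4%) and 5 (29.6% against 20.4%), and Cyp2c reached 19.5% in P. gingivalis replicate 6, against at most 6.82% in the other 11 libraries.

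Family 1 enzymes oxidise planar aromatic compounds and are induced through Ahr. Cyp1a1 (chr9:57687928-57703824, plus strand, GRCm38) had 66.8, 86.8, 73.4, 53.8, 421 and 53.1 normalized counts in P. gingivalis replicates 1 to 6, against 47.1, 36.3, 25.6, 40.4, 5.02 and 85.3 in PBS replicates 1 to 6. The groups overlapped through PBS replicate 6 alone, which lay above 4 of the P. gingivalis libraries. P. gingivalis replicate 5 and PBS replicate 5 were the extremes. The mean was 126 ± 145 after P. gingivalis and 39.95 ± 26.6 in PBS (SD, n = 6 each). The log2 difference of 1.51 (SE 0.60) did not pass (limma, unadjusted p = 0.0255, adjusted p = 0.992). Leaving out P. gingivalis replicate 5 gave 1.07, and leaving out PBS replicate 5 gave 1.03.

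The stretch before the RefSeq start of Cyp1a1 is shown because the gene is the standard readout of Ahr. Ahr with its partner Arnt binds sites with the core GCGTG, which stands in capitals together with a TATAAA box. The stretch is chr9:57697363-57697612, plus strand, and lies inside the annotated gene span but outside its exons.
Cyp1a1: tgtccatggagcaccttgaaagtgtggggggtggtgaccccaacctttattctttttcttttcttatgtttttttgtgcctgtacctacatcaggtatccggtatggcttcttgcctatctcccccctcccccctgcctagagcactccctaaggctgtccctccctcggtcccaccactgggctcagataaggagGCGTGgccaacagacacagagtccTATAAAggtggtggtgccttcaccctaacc
The GCGTG began 54 bases and the TATAAA 30 bases before the start. Searched on both strands in the 250 bases before the start, GCGTG occurred in 28.2% of 32851 RefSeq windows and in 13 of the 63 P450 genes with a window (20.6%), so the match does not set Cyp1a1 apart. TATAAA, searched on the gene's strand, occurred in 7.59% of all windows and in 17 of the 63 (27.0%). Sequence farther from the start was not searched for any gene.

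The other members of family 1 varied little or were near absent. Cyp1b1, which oxidises oestrogens and polycyclic compounds and is carried largely by stromal cells, averaged 71.2 ± 17.2 after P. gingivalis and 67.6 ± 9.01 in PBS, with a log2 difference of 0.05 (SE 0.15). Cyp1a2, chiefly a liver enzyme, had 0 reads in the P. gingivalis libraries together and 3 in the PBS libraries together. The AHR repressor gene Ahrr, another classical target, differed by 0.24 (SE 0.14) and Ahr itself by 0.24 (SE 0.14) on the log2 scale. The target Ugt1a6a differed by 0.12 (SE 0.21), while Tiparp and Nqo1, the 2 tested targets below 0, each differed by -0.02 (SE 0.11 and 0.12). Of 7 other AHR targets 6 were tested, 4 with differences above 0 and 2 below, with a median of 0.14, and none passed.

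**Figure D3:**
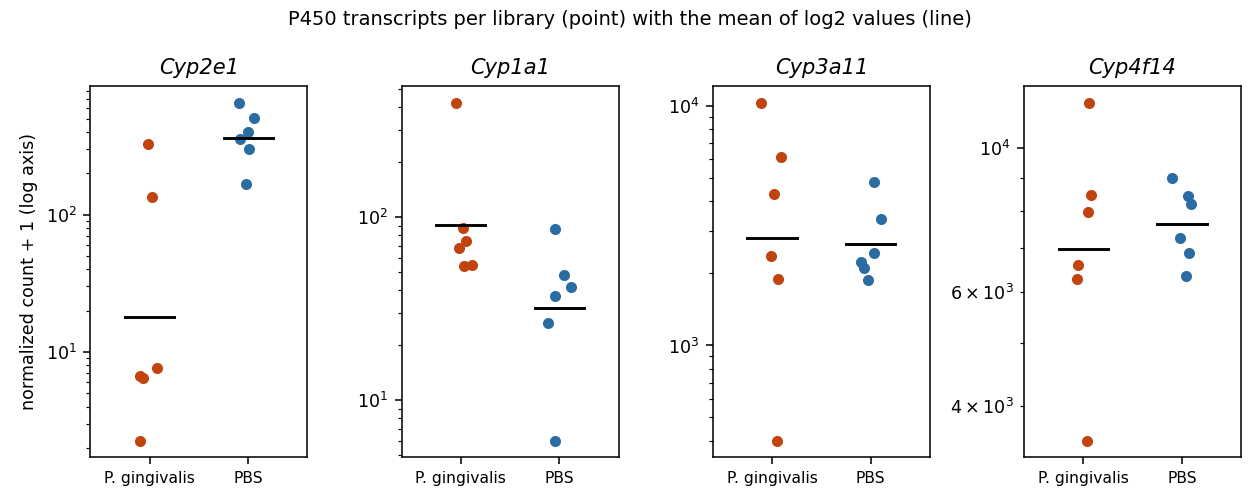
Level of Cyp2e1, Cyp1a1, Cyp3a11 and Cyp4f14 in each library (each point a library, log axis of normalized count + 1), with P. gingivalis to the left of PBS and a line at the mean of the log2 values. The groups overlap in every panel, and in Cyp2e1 the overlap is made by P. gingivalis replicate 6, at 324.

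Family 2 is the largest, with 49 members of which 16 were tested, 11 with differences above 0 and 5 below. Cyp2e1 (chr7:140763739-140774987, plus strand, GRCm38), which oxidises ethanol, acetone and fatty acids and is found in liver and in fat, held the smallest p of all 31. It had 1.26, 5.42, 6.58, 134, 5.72 and 324 normalized counts in P. gingivalis replicates 1 to 6, against 399.9, 355, 499.9, 651, 166 and 298 in PBS replicates 1 to 6. In P. gingivalis replicates 1, 2, 3 and 5 the level was near the floor, replicate 4 lay below the lowest PBS library, and replicate 6 lay within the PBS range. The mean was 79.6 ± 131 after P. gingivalis and 395 ± 167 in PBS (SD, n = 6 each). The difference of mean log2 values was -4.35 (SE 1.02; limma adjusted p = 0.319) and did not pass. On the scale of mean counts it was smaller, at -2.25 with edgeR and -2.31 with DESeq2, which did not call it either. Leaving out P. gingivalis replicate 6 gave -5.19 (SE 0.78; limma adjusted p = 0.0112), one of 52 lower calls among 15025 genes (0.346%). Over all single libraries left out it ran between -5.19 and -3.75, with limma's adjusted p between 0.0112 and 0.868.

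Markers of fat cells, mesothelium and smooth muscle also lay lower in P. gingivalis libraries, though none passed. All 8 fat cell markers (Adipoq, Plin1, Cfd, Fabp4, Retn, Lep, Lpl and Cidec) had log2 differences below 0, with a median of -4.22. Their summed level was 487 to 3055 in the P. gingivalis libraries and 1907 to 8437 in the PBS libraries, and 5 of the 8, Adipoq and Plin1 among them, had no reads in P. gingivalis replicates 1, 2 and 3. The sums of those 3 libraries came from Fabp4, Lpl and Cidec alone, with Cidec the largest part (476, 419 and 302). Whether these 3 genes were read from fat cells there was not tested. Within the 6 PBS libraries Cyp2e1 and the marker sum stood in the same order, from replicate 5 at the low end to replicate 4 at the high end. With the mean log2 level of the fat markers as a covariate, a setting chosen after the data were seen, the Cyp2e1 difference was 0.24 (SE 0.60). That level was 2.59 to 7.71 in the P. gingivalis libraries and 7.09 to 9.32 in the PBS libraries, so it nearly separates the groups. The fit therefore cannot tell treatment and fat marker level apart. All 4 tested mesothelial markers had differences below 0 (median -1.35), though Krt19 only by -0.17 (SE 0.19). Upk3b, at 21.7 ± 7.78 after P. gingivalis and 70.8 ± 31.3 in PBS, lay wholly below PBS (-1.62, SE 0.32; limma adjusted p = 0.215). All 6 smooth muscle markers were below 0 (median -0.53). Lymphocyte markers went the other way, with all 6 B cell markers (median 0.70) and all 5 tested T cell markers (median 0.53) above 0 and none passing. A few libraries of both groups held the high values. The B cell sum was 629 to 837 in P. gingivalis replicates 3, 4 and 6 and 735 and 749 in PBS replicates 1 and 6. In the other libraries it was 171 to 340. The T cell sum was highest in the libraries with little Fabp6 (320 and 297 in P. gingivalis replicates 1 and 5, 314 in PBS replicate 6). Of 6 hepatocyte markers 3 were tested, and the defining one, Alb, was between 0.870 and 21.7 after P. gingivalis and between 12.5 and 34.3 in PBS, with a difference of -2.45 (SE 0.50; limma unadjusted p = 0.000272, adjusted p = 0.240). Cps1, which enterocytes also express, and Ttr differed by 0.14 and 0.00. The part of mesothelial, muscle and liver markers in the Cyp2e1 difference was not tested, and that of fat cells cannot be told apart from treatment. In whole tissue, fewer cells of a type and less RNA per cell cannot be told apart.

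**Figure D4:**
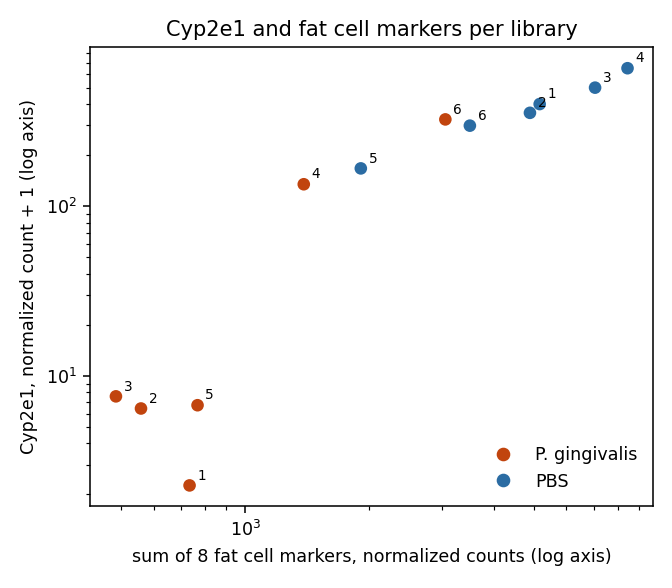
Cyp2e1 level (vertical, normalized count + 1, log axis) against the summed level of 8 fat cell markers (horizontal, normalized counts, log axis) in each library. The 4 P. gingivalis libraries with Cyp2e1 under 7 have marker sums of 487 to 767, below the lowest PBS library at 1907.

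The stretch before Cyp2e1 is shown because it held the largest difference. It runs over chr7:140763569-140763738, plus strand, and ends at the first annotated exon base.
Cyp2e1: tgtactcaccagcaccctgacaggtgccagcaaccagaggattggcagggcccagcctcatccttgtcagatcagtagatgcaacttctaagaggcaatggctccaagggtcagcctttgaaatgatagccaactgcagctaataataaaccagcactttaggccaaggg
It holds none of the motifs searched, so no letters are in capitals, and a TATAAA lay 31 bases before the RefSeq start, beyond the stretch shown.

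Cyp2b10, the classical target of the constitutive androstane receptor, had both its lowest and its highest value in P. gingivalis libraries. It ran between 20.9 and 3132 in the P. gingivalis libraries (median 589.5) and between 78.5 and 2217 in the PBS libraries (median 289). The highest values were in P. gingivalis replicates 5 and 1 (3132 and 2294) and PBS replicate 6 (2217), the 3 libraries with little Fabp6, and the lowest in P. gingivalis replicate 6. The log2 difference was 0.59 (SE 1.08), and 0.18 (SE 0.29) with the gut position of each library as a covariate, scored as the mean log2 level of 5 distal ileal markers minus that of 5 proximal markers. Without P. gingivalis replicate 6 it was 1.48 (SE 0.80), and without P. gingivalis replicate 5 it was 0.05 (SE 1.06), with limma adjusted p of 0.651 and 0.9998. Nr1i3, which encodes the receptor, had its 3 highest values in the same libraries (977 and 962 in P. gingivalis replicates 5 and 1, 885 in PBS replicate 6) and its lowest, 67.8, in P. gingivalis replicate 6. Its own log2 difference was 0.22 (SE 0.58).

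The stretches before Cyp2b10 and Cyp3a11 are shown because both genes were high in the same 3 libraries. They are chr7:25897408-25897619, plus strand, and chr5:145879965-145880104, minus strand, each ending at the first annotated exon base.
Cyp2b10: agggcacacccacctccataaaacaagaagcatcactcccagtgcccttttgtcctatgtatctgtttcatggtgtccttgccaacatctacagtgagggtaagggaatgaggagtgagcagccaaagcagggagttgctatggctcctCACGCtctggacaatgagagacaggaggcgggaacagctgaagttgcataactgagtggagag
Cyp3a11: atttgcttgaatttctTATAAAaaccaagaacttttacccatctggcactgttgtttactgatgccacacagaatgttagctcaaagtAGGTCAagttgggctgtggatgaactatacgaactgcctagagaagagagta
Capitals mark GCGTG in Cyp2b10, read on the other strand as CACGC, with a second GCGTG beginning 9 bases before the RefSeq start, beyond the stretch shown. They mark in Cyp3a11 a TATAAA and AGGTCA, the half-site that nuclear receptors bind. In Cyp3a11 the AGGTCA and TATAAA began 162 and 234 bases before its RefSeq start. AGGTCA, searched on both strands, was in 14.0% of all 32851 windows and in 16 of the 63 P450 windows (25.4%). Of the 26 tested genes with a window 4 had it, a share near that of all windows. They were Cyp2c29, Cyp3a11, Cyp3a25 and Cyp3a44, and Cyp2b10 had none in its window. The windows do not show whether receptor sites lie farther from the start.

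The Cyp2c enzymes form epoxides and hydroxylated products of arachidonic acid, and 7 of 15 were tested, 6 with differences above 0. Cyp2c65, the most abundant, averaged 721 ± 342 after P. gingivalis and 618 ± 186 in PBS, with a log2 difference of 0.14 (SE 0.27). Cyp2c66, its neighbour on chromosome 19, ran between 52.6 and 483 after P. gingivalis (median 154) and between 75.2 and 349 in PBS (median 113), with a difference of 0.35 (SE 0.52). The difference was -0.06 (SE 0.33) without the 3 libraries with little Fabp6. Cyp2c68 averaged 243 ± 79.7 and 237 ± 37.6 in the same order of groups, and its difference was -0.02 (SE 0.20). Cyp2c44, an epoxygenase of kidney and liver, differed by 0.48 (SE 0.50), Cyp2c67 by 0.01 (SE 0.30) and Cyp2c29 by 0.01 (SE 0.95). Cyp2c29 reached 103 in P. gingivalis replicate 5 and had no reads in P. gingivalis replicate 6.

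Cyp2c55, an arachidonic acid hydroxylase best known from the colon, had the reverse order over libraries. It had 51.7, 189, 59.2, 69.4, 30.9 and 1517 normalized counts in P. gingivalis replicates 1 to 6, against 243, 257, 95.6, 88.5, 91.1 and 36.7 in PBS replicates 1 to 6. Its lowest values were in the 3 libraries with little Fabp6, and its highest in P. gingivalis replicate 6, where most other P450 genes were lowest. The log2 difference was 0.02 (SE 0.79). It was -0.73 (SE 0.50) without P. gingivalis replicate 6, 1.27 with edgeR, and 0.29 (SE 0.39) with gut position as a covariate. The 250 bases before its start, chr19:39006769-39007018 on the plus strand, are shown as the counterpart of the Cyp2b10 and Cyp3a11 stretches.
Cyp2c55: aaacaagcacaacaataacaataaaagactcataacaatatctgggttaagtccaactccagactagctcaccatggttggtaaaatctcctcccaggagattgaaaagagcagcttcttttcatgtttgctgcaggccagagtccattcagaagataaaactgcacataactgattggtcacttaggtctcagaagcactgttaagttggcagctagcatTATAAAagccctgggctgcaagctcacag
The capitals mark a TATAAA that began 29 bases before the start, and neither GCGTG nor AGGTCA was found.

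**Figure D5:**
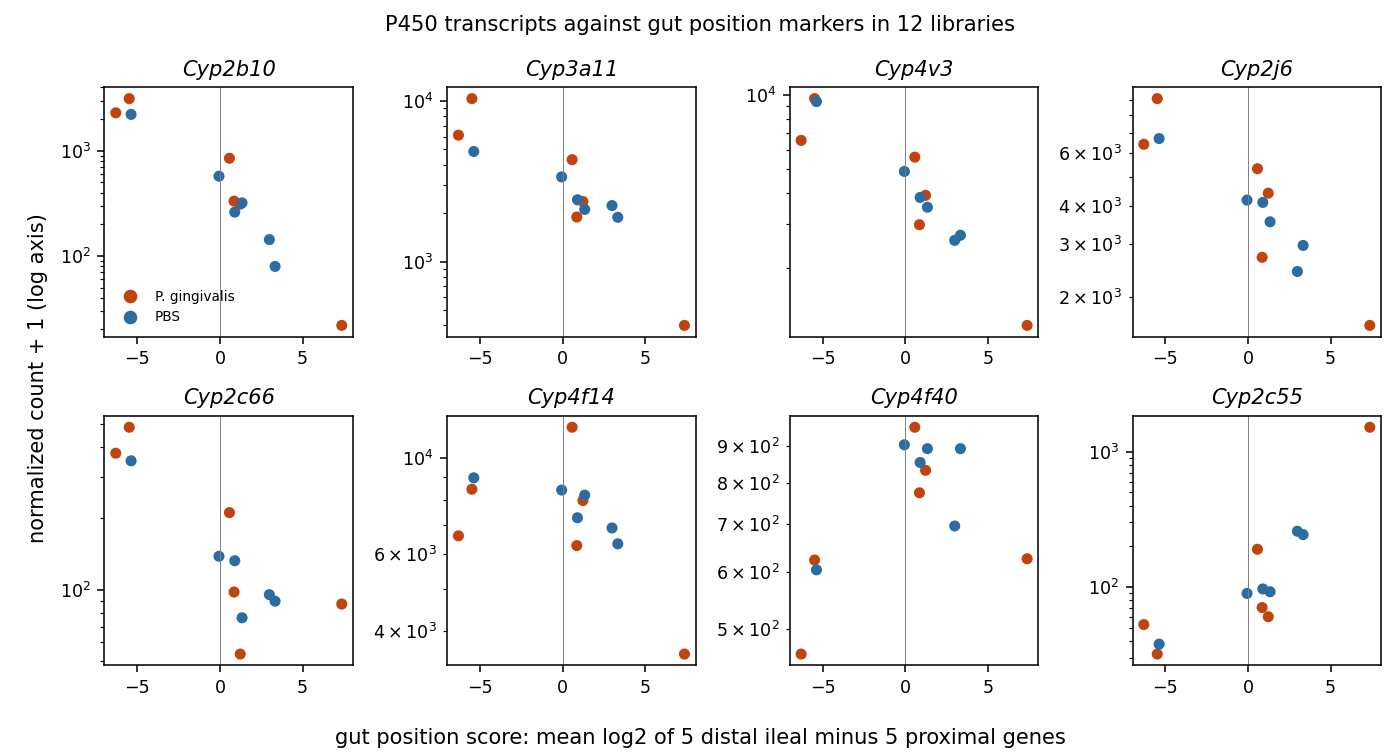
Level of 8 P450 genes (vertical, normalized count + 1, log axis) against the gut position score of each library (horizontal, mean log2 of 5 distal ileal markers minus that of 5 proximal markers), with P. gingivalis and PBS libraries in separate colours. The 3 libraries with scores of -6.31, -5.50 and -5.39 hold the high values of Cyp2b10 and Cyp3a11 and the low values of Cyp2c55, and P. gingivalis replicate 6 at 7.37 holds the reverse.

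Among the Cyp2d and Cyp2j genes, Cyp2d22, Cyp2d26, Cyp2j6 and Cyp2j9 were high in the 3 libraries with little Fabp6. Cyp2d26 averaged 1828 ± 869.9 after P. gingivalis and 1645 ± 576 in PBS, and Cyp2d22, of the subfamily whose human member CYP2D6 clears many drugs, averaged 262 ± 104 and 238 ± 61.8 in the same order. Their log2 differences were 0.03 (SE 0.35) and 0.07 (SE 0.25). Cyp2j6, an intestinal P450 of a subfamily that forms arachidonic acid epoxides, ran between 1611 and 9081 after P. gingivalis (median 4868) and between 2430 and 6697 in PBS (median 3833), with a difference of 0.17 (SE 0.37). Cyp2j9 differed by 0.09 (SE 0.30). Cyp2j13 was the exception among the 3 tested Cyp2j genes in not being raised in the 3 libraries with little Fabp6, and it differed by -0.49 (SE 0.35). It averaged 88.4 ± 50.3 after P. gingivalis and 111 ± 32.8 in PBS.

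Cyp2s1, an epithelial P450 inducible through Ahr, averaged 434 ± 92.9 after P. gingivalis and 472 ± 41.5 in PBS, with a log2 difference of -0.15 (SE 0.13). Cyp2u1, a hydroxylase of long-chain fatty acids, had 525.6, 870.5, 599, 622, 398 and 240.1 normalized counts in P. gingivalis replicates 1 to 6, against 646, 555, 783, 831, 863 and 667 in PBS replicates 1 to 6. P. gingivalis replicates 1, 5 and 6 lay below every PBS library, and replicate 2 above every one. The difference of -0.51 (SE 0.24; limma unadjusted p = 0.0574, adjusted p = 0.992) did not pass.

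Family 3 holds the main drug-oxidising enzymes of gut and liver, targets of the pregnane X receptor, and 4 of its 7 members were tested, all with differences above 0 and none passing. Cyp3a11 had 6121, 4305, 2364, 1892, 10338 and 399 normalized counts in P. gingivalis replicates 1 to 6, against 1886, 2231, 2424, 3364, 2110 and 4842 in PBS replicates 1 to 6. The P. gingivalis libraries spanned the PBS range on both sides. The log2 difference was 0.08 (SE 0.60). It was -0.13 (SE 0.26) with gut position as a covariate and -0.50 (SE 0.53) without the 3 libraries with little Fabp6, so its direction depended on those libraries. Single libraries moved it too, to -0.30 without P. gingivalis replicate 5 and to 0.64 without P. gingivalis replicate 6.

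Cyp3a13, the Cyp3a enzyme regarded as mainly intestinal in mice, averaged 2939 ± 1913 after P. gingivalis and 2085 ± 819.6 in PBS, with a log2 difference of 0.27 (SE 0.43). Cyp3a25 averaged 2843 ± 1416 and 2387 ± 562 in the same order of groups, with a difference of 0.12 (SE 0.29). Both were highest in P. gingivalis replicate 5 and lowest in P. gingivalis replicate 6. Cyp3a44 was weak and did not follow the other 3 genes. It had 37.8, 78.6, 102, 26.3, 76.6 and 196 normalized counts in P. gingivalis replicates 1 to 6, against 47.8, 41.5, 37.9, 42.3, 72.7 and 39.9 in PBS replicates 1 to 6, and its highest value was in P. gingivalis replicate 6. The difference of 0.61 (SE 0.38) had a limma adjusted p of 0.992. The receptor gene Nr1i2 differed by 0.11 (SE 0.20), and the 10 other PXR targets divided into 5 above and 5 below 0, with a median of 0.03 and no call.

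Family 4 had 9 of its 17 members tested, 3 with differences above 0 and 6 below, and none passed. Cyp4f14, a leukotriene and fatty acid hydroxylase and the most abundant P450 here, had 6609, 11733, 7966, 6277, 8455 and 3538 normalized counts in P. gingivalis replicates 1 to 6, against 6336, 6890, 7272, 8419, 8195 and 8982 in PBS replicates 1 to 6. The PBS libraries lay close together, while P. gingivalis replicate 2 lay above and P. gingivalis replicates 4 and 6 below all of them. Its means were 7430 ± 2721 and 7682 ± 1010, and the log2 difference was -0.13 (SE 0.23). Its level was not set apart in the 3 libraries with little Fabp6.

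The remaining Cyp4f genes had smaller values. Cyp4f16 averaged 1348 ± 515 after P. gingivalis and 1491 ± 245 in PBS, with a log2 difference of -0.22 (SE 0.22). Cyp4f40 averaged 712 ± 177 and 806 ± 126 in the same order, with a difference of -0.20 (SE 0.17), and was lowest in the 3 libraries with little Fabp6 (460.1 and 623 in P. gingivalis replicates 1 and 5, 604 in PBS replicate 6). Cyp4f13 differed by -0.07 (SE 0.19), Cyp4f17 by -0.44 (SE 0.26) and Cyp4f18, which inactivates leukotriene in mouse leukocytes, by 0.21 (SE 0.36). Cyp4f17 and Cyp4f18 averaged 15.1 and 12.2 normalized counts over the 12 libraries, so that counting error weighs on both.

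Cyp4v3, the mouse counterpart of the human fatty acid hydroxylase CYP4V2, ran between 1173 and 9655 after P. gingivalis (median 4767) and between 2587 and 9394 in PBS (median 3687). PBS replicate 6 stood far above the other PBS libraries, whose highest was 4907. The log2 difference was 0.03 (SE 0.45), and -0.14 (SE 0.17) with gut position as a covariate. Cyp4b1, which oxidises fatty acids and some plant toxins, averaged 1148 ± 518 after P. gingivalis and 1028 ± 378 in PBS, with a difference of 0.10 (SE 0.32).

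Cyp4a10, the classical PPARA target among P450 genes, was near the floor in most libraries. It had 23.9, 2.71, 3.29, 0, 41.1 and 0 normalized counts in P. gingivalis replicates 1 to 6, against 0.714, 1.04, 5.68, 8.65, 0.836 and 52.9 in PBS replicates 1 to 6. The 3 highest values were again in the libraries with little Fabp6, and the log2 difference was -0.07 (SE 1.07). Ppara differed by 0.05 (SE 0.22). Of 20 other PPARA targets, 4 had differences above 0 and 16 below, with a median of -0.15 against 0.00 over all genes, and none passed. The one with the smallest p, Vnn1, a pantetheinase of the brush border, averaged 365 ± 217 after P. gingivalis and 518 ± 63.9 in PBS, with a difference of -0.74 (SE 0.35; limma adjusted p = 0.992).

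The 45 members that were not tested were rare. Those with no reads were Cyp2a22, Cyp2b13, Cyp2b19, Cyp2b23, Cyp2c37, Cyp2c54, Cyp2d11, Cyp2g1 and Cyp2t4. Of the 36 with reads below the limit, 17 had 10 or fewer in the 12 libraries together. Cyp2w1, a P450 known from fetal gut and colon tumours, came nearest the limit of 10 from below, with a mean of 8.50 from 47 reads in the P. gingivalis libraries and 65 in the PBS libraries, and Cyp4a10 came nearest from above, at 11.7. Cyp3a59 had 42 and 54 reads, Cyp2c38 39 and 23, and Cyp2j8 32 and 39, with the P. gingivalis libraries first in each pair. Cyp2r1, a vitamin D hydroxylase, had 17 reads in each group, and Cyp4a14, a PPARA target in liver, had 0 and 3.

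Genes that serve P450 enzymes did not pass the test by treatment, and several had their highest values in the libraries where the P450 genes were high. Por, the electron donor of all 4 families, averaged 1503 ± 658 after P. gingivalis and 1327 ± 550.0 in PBS, with a log2 difference of 0.14 (SE 0.31). Its values in P. gingivalis replicates 5 and 1 and PBS replicate 6, at 2487, 1900 and 2343, were the 3 highest, and P. gingivalis replicate 6 was lowest at 631. Cyb5b, a cytochrome b5 of mitochondria, differed by 0.19 (SE 0.28). Of 8 electron donor genes 5 had differences above 0 and 3 below, with a median of 0.04. Of 11 haem synthesis and turnover genes 4 were above 0 and 7 below, with a median of -0.06. Of 19 tested receptor and regulator genes 9 were above 0 and 10 below, with a median of 0.00. No gene of these lists passed.

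Enzymes that share arachidonic acid with the P450 genes did not pass either. Of 13 tested, 5 had differences above 0 and 8 below, with a median of -0.03. Ptgis, the prostacyclin synthase, averaged 42.3 ± 20.9 after P. gingivalis and 63.5 ± 12.4 in PBS, with a log2 difference of -0.68 (SE 0.27; limma unadjusted p = 0.0244, adjusted p = 0.992). Ephx2, the soluble epoxide hydrolase that converts P450 epoxides to diols, differed by 0.29 (SE 0.47) and was highest in the 3 libraries with little Fabp6 (5765 and 4345 in P. gingivalis replicates 5 and 1, 4095 in PBS replicate 6). P450 genes of other families, which make and break down sterols, bile acids and retinoids, had 7 of 19 tested, 3 above 0 and 4 below, with a median of -0.01 and none passing. Among them Cyp27a1, a sterol hydroxylase, differed by 0.26 and Cyp26b1, a retinoic acid hydroxylase, by 0.36.

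Near-identical neighbours limit some of these values. For 8 of the 31 genes more than 10% of the 50-base stretches of their exons also occur in another gene, up to 52.8% for Cyp2c67, 43.3% for Cyp2c68, 29.8% for Cyp4a10, 26.8% for Cyp3a25, 26.5% for Cyp3a44, 20.6% for Cyp2c65, 19.5% for Cyp2c66 and 17.4% for Cyp4f16. How reads that match more than 1 gene were counted was not stated, so levels of these 8 are uncertain.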

How the data were processed

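Polyadenylated RNA of 12 distal ileal samples was sequenced from libraries made with an Illumina TruSeq kit, per the labels' protocols. The deposited values are a normalized signal, in which the authors scaled each library's gene counts by a size factor, as read from the table's name and numbers. Build GRCm38 (mm10) and the tools HISAT2, Cufflinks, DESeq2 and FastQC come from the submitters' processing notes, which state no version. How reads were counted, the strand setting and the annotation release were not stated there, so overlapping and antisense genes are uncertain.

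Values were whole multiples of 1 step per library. Dividing by it gave whole reads for 100% of values within 0.001 reads, with a largest deviation of 3.66e-05. No reads were recorded for 18583 genes, and 4 entries that share a name spoiled into a date were kept apart and are not named. No library was a copy of another, as chi-square over degrees of freedom was at least 6.53 for every pair. Totals of 6553306 to 10378841 reads limit the precision of weak genes.

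The test was limma-trend (limma 3.58.1, R 4.3.3) on values taken as log2(normalized count + 1), two-sided, over the 15025 genes with a mean of at least 10 over the 12 libraries, with Benjamini-Hochberg adjustment at 0.05. The pseudocount makes differences of weak genes too small. The procedure was run on simulated counts with the same dispersion for every gene and no outlying libraries. That run does not show how the test behaves for genes as widely spread as these. On the recovered reads edgeR 4.0.16 and DESeq2 1.42.0 were run as alternatives, beside other pseudocounts, filters and scalings, sample weights, a replicate block, covariates and libraries left out. Gut position was scored as the mean log2 level of 5 distal ileal markers minus that of 5 proximal markers. For P. gingivalis replicate 6 the score of 7.37 came from its low proximal mean (4.64, against 9.44 or more in the other libraries). Its distal mean, at 12.0, was not the highest (PBS replicate 2 had 12.9).

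Named P450 genes were those averaging at least 50, the 4 smallest p in each direction, and Cyp1a1, Cyp1b1, Cyp2e1, Cyp3a11 and Cyp4a10. Of each list the 2 smallest p in each direction were eligible, with Por, Ahr, Nr1i2 and Ppara. Nr1i3, Ephx2 and the weaker P450 genes were otherwise named after their values were seen. Members and lists were chosen with earlier results of these data known. Positions come from GENCODE (GRCm38), where Cyp2c44 is listed as Cyp2c23, and promoter stretches from RefSeq (GRCm38.p6), which matched 63 of 76 members. Protein sequences were not used here.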

Additional observations from a re-analysis of the deposited data

Results flagged for a closer look

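Within a group of 6 libraries, 1 value lay far from the rest in 13 of 56 groups of values for the named P450 genes. Chance gives about 1 in 20 for a single group. The genes share the same 12 libraries and are not independent, so the count cannot be set against that rate. Values are normalized counts, and the range of the other 5 libraries follows each.

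In P. gingivalis libraries, Cyp1a1 was 421 in replicate 5 (others 53.1 to 86.8), and Cyp2c55 was 1517 in replicate 6 (others 30.9 to 189).

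In PBS libraries, 10 of the 13 were high values of replicate 6, a library with little Fabp6. Among drug-oxidising genes, Cyp2b10 was 2217 there (others 78.5 to 572), Cyp3a25 was 3467 (others 1886 to 2380), Cyp2d26 was 2765 (others 1205 to 1686) and Cyp2d22 was 358 (others 193 to 242). Among Cyp2c genes, Cyp2c65 was 985 (others 483 to 606), Cyp2c66 was 349 (others 75.2 to 138), Cyp2c68 was 309.9 (others 199 to 230.1) and Cyp2c44 was 43.2 (others 6.43 to 13.5). In family 4, Cyp4v3 was 9394 (others 2587 to 4907) and Cyp4a10 was 52.9 (others 0.714 to 8.65). The remaining one was Cyp3a44 at 72.7 in PBS replicate 5 (others 37.9 to 47.8).

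These 10 genes of PBS replicate 6 were all among the 15 that were also high in P. gingivalis replicates 1 and 5, so the high values of that library recurred in 2 libraries of the other group.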

How the results depend on the processing

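Over 27 alternatives the count of P450 genes called stayed at 0 except with the enterocyte marker covariate (1, Cyp2e1 at -4.56, limma adjusted p = 0.0290) and when single libraries were left out (0 to 1, the 1 being Cyp2e1 without P. gingivalis replicate 6). For Cyp2e1, limma's adjusted p was 0.0516 with sample weights and 0.0640 with the gut position covariate, while edgeR gave -2.25 (adjusted p = 0.993) and DESeq2 -2.31. Over all P450 genes limma's smallest adjusted p was 0.798 with a replicate block and 0.999 without the 3 libraries with little Fabp6. The count over all genes, 0 as reported, was 0 of 14907 with edgeR, 33 of 18561 with DESeq2, 1 with a pseudocount of 5, 20 with sample weights, 11 with the gut position covariate, 1 without the 3 libraries with little Fabp6, 9 without those and P. gingivalis replicate 6, 58 with the enterocyte covariate and 0 to 53 with single libraries left out. The causes were not tested. The marker covariates and the setting without 4 libraries were chosen after seeing the data.

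Of the 8 named genes with the smallest p, 4 changed sign. With the fat marker covariate, which nearly separates the groups, Cyp2c44 was -0.18, Cyp2c66 -0.24 and Cyp2e1 0.24. Without the 3 libraries with little Fabp6, Cyp2c66 was -0.064. Without those and P. gingivalis replicate 6, Cyp2c66 was -0.0015 and Cyp2j13 0.16. All 20 other named genes changed sign in at least 1 setting, and none moved by more than 1 SD between replicates. TMM and upper-quartile scaling moved the median of all genes by at most 0.01. No gene of the 8 lists of partner, receptor, target and eicosanoid genes and other P450 families was called in any setting run. Of the cell type markers, 57 tested as reported, 3 were called with DESeq2 (Cidec, Lrrn4 and Upk3b), 4 with sample weights, 10 with the enterocyte covariate, 8 without P. gingivalis replicate 6, and 1 each without P. gingivalis replicate 2 (Alb) and without 4 libraries (Lep), all lower.

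Same-numbered libraries of the groups did not deviate together (correlations of -0.44, 0.08, -0.01, 0.08, -0.05 and -0.54). Numbers 1 and 6 join libraries with opposite gut position scores (P. gingivalis -6.31 against PBS 3.33, and 7.37 against -5.39). The correlations therefore cannot exclude a pairing, which the labels do not state. With a replicate block 0 P450 genes and 0 genes in all were called, and Cyp1a1 was 1.51 (limma unadjusted p = 0.0814). With a filter at a mean of 1, which let 49 P450 genes be tested, none was called, and for the weakest of them counting error limits the precision.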
